A study of Mus musculus with 22 samples.

Results

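The p53 pathway was followed through 10 genes: Trp53, which encodes p53 itself, its antagonist Mdm2, and the targets Cdkn1a, Sesn1, Sesn2, Ccng1, Trp53inp1, Phlda3, Aen and Zmat3. They were chosen by name, and every array probe listed under one of these symbols was taken. No probe was listed under Trp53, so p53's own transcript is not analysed here. The other 9 genes had 23 probes, all kept by the filter on dim probes, among 14500 named genes measured. Whole spleens of 22 mice carrying a cyclin D1 transgene were measured, 1 bead array per mouse. The immune stimulus in all mice was sheep erythrocytes (SRBC in the labels), a foreign antigen; it was given alone to 8 mice, weekly per the design text, with irradiation to 9 and with pristane, an inflammatory oil, to 5. In 14 mice the B cells also lacked Bim, a pro-death protein: 7 of these had disease by histopathology (MCL, as the labels write it) and 7 were free of it. The remaining 8 mice carried the transgene alone and were also free of disease. On SRBC alone were 3 diseased, 2 disease-free Bim-deleted and 3 transgene-only mice. Irradiated were 3 of each group, and pristane was given to 1, 2 and 2. The promoter of the transgene, the driver of the B cell deletion, the ages, and the dose and timing of irradiation are not stated in the labels used here.

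p53 is a transcription factor that is held at low levels by Mdm2, a ubiquitin ligase whose gene p53 itself switches on. DNA damage, such as that from irradiation, and oncogene stress release p53, and its targets then halt the cell cycle, restrain growth signalling, repair DNA or kill the cell. Lymphocytes of the spleen are among the most radiation-sensitive cells of the mouse, and p53 and Bim are both known as mediators of their death.

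p53 binds DNA through copies of a 10-base half-site. Promoters of 8 of the 10 genes were found in the RefSeq table of build GRCm38.p6; Trp53inp1 and Zmat3 were named only. Each window was the 250 bases before an annotated start, searched for exact matches to the p53 half-site consensus, which reads the same on both strands. Such a match lay in 6 of the 11 windows of these genes, and in 7.126% of all 32851 windows. The windows of Mdm2, the gene with the clearest difference below, of Ccng1 and Sesn1, and of Cdkn1a, the classical target, are shown 5′ to 3′ with matches in capitals.
Mdm2, chr10:117710759-117711008, minus strand: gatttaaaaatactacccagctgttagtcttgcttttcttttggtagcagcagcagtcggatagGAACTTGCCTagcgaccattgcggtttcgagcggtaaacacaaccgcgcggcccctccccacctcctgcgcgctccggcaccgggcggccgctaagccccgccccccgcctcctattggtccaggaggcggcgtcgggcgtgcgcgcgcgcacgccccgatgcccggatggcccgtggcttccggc
Ccng1, chr11:40755287-40755536, minus strand: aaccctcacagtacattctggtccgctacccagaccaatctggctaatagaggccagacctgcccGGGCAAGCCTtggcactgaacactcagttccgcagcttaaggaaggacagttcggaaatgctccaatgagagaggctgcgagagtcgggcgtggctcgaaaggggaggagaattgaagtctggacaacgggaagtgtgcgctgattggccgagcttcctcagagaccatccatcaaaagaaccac
Sesn1, downstream start, chr10:41887189-41887438, plus strand: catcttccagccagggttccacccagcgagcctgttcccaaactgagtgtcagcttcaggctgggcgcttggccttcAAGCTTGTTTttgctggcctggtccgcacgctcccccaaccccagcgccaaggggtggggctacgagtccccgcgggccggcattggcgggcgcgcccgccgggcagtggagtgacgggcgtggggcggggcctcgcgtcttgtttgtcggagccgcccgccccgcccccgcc
Cdkn1a, upstream start, chr17:29090729-29090978, plus strand: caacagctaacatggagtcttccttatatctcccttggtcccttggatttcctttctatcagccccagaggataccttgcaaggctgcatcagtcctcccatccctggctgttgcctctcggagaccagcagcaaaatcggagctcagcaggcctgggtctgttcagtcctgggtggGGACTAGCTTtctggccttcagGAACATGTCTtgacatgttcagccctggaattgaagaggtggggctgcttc
Counted from the start that each window precedes, which for Sesn1 is the downstream one, the match began at position -186 in Mdm2, -185 in Ccng1 and -173 in Sesn1. Cdkn1a held 2 matches, beginning at -73 and -51; 0.2587% of all windows held 2 or more. The window of Trp53 also held 1 match, as did 1 of the 2 Aen windows, and none was found in the windows of Sesn2 and Phlda3. A match is a run of letters, not a measured binding site, and p53 sites known in the mouse outside these windows, such as those in the first intron of Mdm2, were not searched.

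Values are log2 intensities, on which 1 unit is a doubling. Every array had a median of 6.55 and a 40th percentile of 6.52, so a probe near those levels is close to background. The spleens also differed in composition. Of the 8 T cell markers, 6 were measured, and all 6 had lower means in diseased than in the other mice; their mean level per spleen ran from 7.39 to 8.61 in diseased, 8.01 to 9.03 in disease-free Bim-deleted and 7.39 to 9.43 in transgene-only mice. B cell markers (6 of 8 measured) ran from 8.96 to 9.23, 8.06 to 9.33 and 7.76 to 9.32, with Pax5, a defining B cell gene, at background on all arrays (6.40 to 6.60). In a whole spleen, fewer cells of a type and less RNA per cell cannot be told apart. The sexes were unevenly spread: Xist exceeded Eif2s3y in 6 of 7 diseased, 2 of 7 disease-free Bim-deleted and 4 of 8 transgene-only mice.

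Of the members with lower means in diseased mice than in both other groups (Sesn1, Trp53inp1 and Mdm2), only Mdm2 passed the adjusted test. Its log2 intensity ran from 9.14 (lowest) through 9.53 (median) to 9.78 (highest) in the 7 diseased mice, from 9.57 through 9.95 to 10.02 in the 7 disease-free Bim-deleted mice, and from 9.70 through 9.996 to 10.01 in the 8 transgene-only mice. The diseased mice lay low as a group: 4 of 7 were below every disease-free Bim-deleted mouse and 5 of 7 below every transgene-only mouse, with overlap at the top. Mean levels were 9.50 ± 0.24 (SD, n = 7), 9.91 ± 0.15 (n = 7) and 9.93 ± 0.12 (n = 8). Mdm2 fell by 0.41 ± 0.09 (SE) against the disease-free Bim-deleted mice (limma, adjusted p = 0.0241), to 75.1% of their level. Against transgene-only mice it fell by 0.43 ± 0.09 (limma, adjusted p = 0.00742). By the exact permutation test over samples, two-sided and unadjusted, the same differences gave p = 0.00408 and 9.32e-04, where the smallest p the test can give is 5.83e-04 and 3.11e-04. The former call was lost without diseased mouse A_1 (adjusted p = 0.0595) or A_2 (0.0519), without disease-free Bim-deleted mouse A_1 (0.0543) or P_2 (0.0541), and with those 2 groups fitted alone (0.0788). Disease-free Bim-deleted and transgene-only mice differed by -0.02 (95% interval -0.20 to 0.17).

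A second Mdm2 probe gave differences of -0.29 ± 0.08 (limma, adjusted p = 0.0802) and -0.32 ± 0.08 (adjusted p = 0.0284) against the same groups, with every probe a feature of its own. The remaining probe lay at background, with a mean of 6.495 over all mice. Across the 22 arrays the second probe followed the first at r = 0.79, given as a description.

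Mdm2 was next read within each stimulus. Within SRBC alone the 3 diseased mice stood at 9.39, 9.14 and 9.30, the 2 disease-free Bim-deleted mice at 9.99 and 9.95, and the 3 transgene-only mice at 9.79, 9.99996 and 9.99. The diseased mice lay below both other groups, which overlapped each other. The differences of the diseased mice from them were -0.69 ± 0.12 (limma, adjusted p = 0.0616) and -0.65 ± 0.10 (adjusted p = 0.0119). The second Mdm2 probe gave smaller differences of the same sign, and neither passed. With every probe a feature of its own they were -0.40 ± 0.13 (adjusted p = 0.233) and -0.38 ± 0.12 (adjusted p = 0.0941). On SRBC alone every diseased mouse had Xist above Eif2s3y and every other mouse the reverse, so disease and sex cannot be told apart. Among irradiated mice the diseased stood at 9.59, 9.78 and 9.53 and the disease-free Bim-deleted at 9.57, 9.92 and 9.91, and the groups overlapped. That difference was -0.17 ± 0.10 (adjusted p = 0.699). The irradiated transgene-only mice stood at 10.01, 9.91 and 9.998, above all 3 irradiated diseased mice, with a difference of -0.34 ± 0.10 (adjusted p = 0.181). The change in the difference between the stimuli did not pass its own test (limma, adjusted p = 0.973 against disease-free Bim-deleted and 0.899 against transgene-only mice). With SRBC alone, 1 of the 9 genes passed the adjusted test against transgene-only mice, and 2.87% of all features did (20.5% at an unadjusted p under 0.05). Against disease-free Bim-deleted mice on SRBC alone 0 of 9 passed and 2 were under 0.05 unadjusted, both lower, beside 0.0147% and 13.6% of all features.

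Mdm2 was also read beside the sex-linked genes. Among mice with Xist above Eif2s3y, Mdm2 ran from 9.14 to 9.76 in the 6 diseased and stood at 10.0009 and 10.02 in the 2 disease-free Bim-deleted mice, which did not overlap, while the 4 transgene-only mice ran from 9.70 to 10.01. Those 2 disease-free mice were both given pristane, against 1 of the 6 diseased mice, so disease and stimulus cannot be told apart there. The only diseased mouse with Eif2s3y above Xist had the highest Mdm2 of its group, 9.78. With the Xist level as a covariate the difference from disease-free Bim-deleted mice was -0.39 ± 0.10 (limma, adjusted p = 0.0567), and with stimulus and Xist together -0.30 ± 0.11 (adjusted p = 0.306). With the T cell marker level as a covariate it was -0.40 ± 0.10 (adjusted p = 0.0362).

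**Figure D1:**
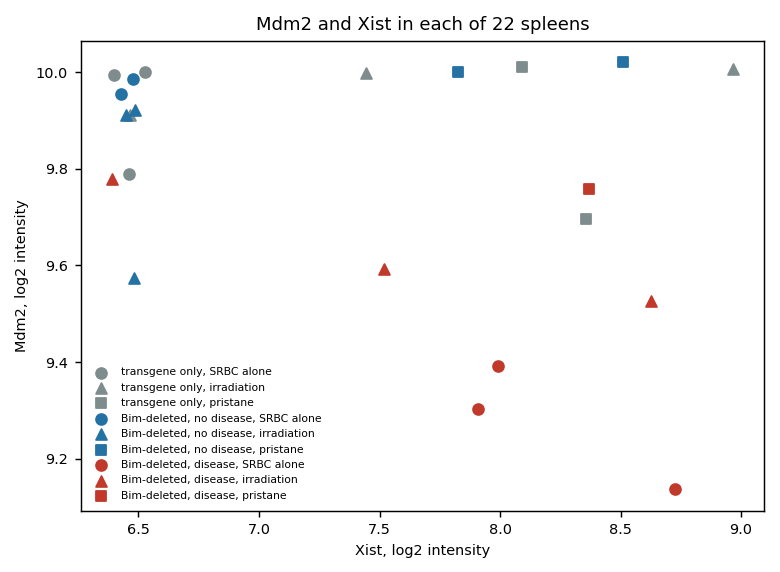
Log2 intensity of Mdm2 (vertical axis) against that of Xist (horizontal axis) in each of 22 spleens; colour gives the genotype-disease group and shape the stimulus. The 6 diseased mice with Xist above Eif2s3y run from 9.14 to 9.76 in Mdm2, below the 10.0009 and 10.02 of the 2 disease-free Bim-deleted mice with Xist above Eif2s3y. Those 2 mice were both given pristane. The 4 transgene-only mice with Xist above Eif2s3y run from 9.70 to 10.01, which overlaps the diseased mice.

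Cdkn1a encodes p21, the cyclin-dependent kinase inhibitor through which p53 halts the cell cycle. Its log2 intensity ran from 7.25 through 7.54 to 8.15 in diseased, 7.21 through 7.28 to 8.05 in disease-free Bim-deleted and 7.29 through 7.48 to 7.84 in transgene-only mice. The groups overlapped almost fully. Diseased minus disease-free Bim-deleted was 0.13 ± 0.14 (limma, adjusted p = 0.757; 95% interval -0.17 to 0.43), and diseased minus transgene only was 0.13 ± 0.14 (adjusted p = 0.658).

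Ccng1 encodes cyclin G1, a p53 target that feeds back on Mdm2. It ran from 9.51 through 9.80 to 10.09 in diseased, 9.22 through 9.51 to 9.97 in disease-free Bim-deleted and 9.25 through 9.62 to 9.89 in transgene-only mice. In both comparisons 3 of 7 diseased mice lay above every mouse of the other group. The differences of 0.28 ± 0.12 (limma, adjusted p = 0.252) and 0.18 ± 0.11 (adjusted p = 0.406) did not pass the test. The 2 other Ccng1 probes gave larger differences. With every probe a feature of its own they were 0.42 ± 0.11 (adjusted p = 0.0622) and 0.31 ± 0.09 (adjusted p = 0.0734) against disease-free Bim-deleted mice. Against transgene-only mice both rose, by 0.47 ± 0.11 (adjusted p = 0.0176) and 0.34 ± 0.08 (adjusted p = 0.0241). Over all probes 1.75% passed in the former comparison and 4.57% in the latter. With the erythroid marker level as a covariate the Ccng1 probe used passed in both comparisons (0.33 ± 0.08, adjusted p = 0.0374, and 0.33 ± 0.09, adjusted p = 0.0324). That list (6 of 8 measured) ran from 9.47 to 10.91 in diseased, 8.19 to 11.02 in disease-free Bim-deleted and 6.58 to 11.40 in transgene-only spleens. Of the marker lists, Ccng1 followed the 8 neutrophil markers most closely, inversely (r = -0.65 over 22 arrays), and Zmat3 had r = -0.58 with them. All 8 had lower means in diseased than in disease-free Bim-deleted mice, with levels from 9.38 to 11.63 against 10.08 to 12.99, and 7.27 to 12.96 in transgene-only mice. With their level as a covariate the Ccng1 difference from disease-free Bim-deleted mice was 0.20 ± 0.09 (adjusted p = 0.293).

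Sesn1 and Sesn2 encode sestrins, which restrain the growth kinase complex mTORC1 under stress. Sesn1 had the widest gap of the 9 genes: 10.32 through 10.81 to 11.93 in diseased, 11.42 through 11.96 to 12.21 in disease-free Bim-deleted, and 10.59 through 11.29 to 12.29 in transgene-only mice. All but 1 of the 7 diseased mice (6 of 7) were below every disease-free Bim-deleted mouse, whereas the transgene-only mice spanned both groups. The difference of -0.91 ± 0.24 from disease-free Bim-deleted mice missed the threshold (limma, adjusted p = 0.0551; exact permutation p = 0.0035, unadjusted). It passed with the stimulus as a covariate (-0.92 ± 0.20, adjusted p = 0.0298), and without the irradiated diseased mouse I_2, which carries the highest value of its group, it was -1.08 (adjusted p = 0.0122). Leaving out transgene-only mouse I_3 or P_2, which narrows the shared spread, also took it past the threshold (adjusted p = 0.0346 and 0.0372). Mouse I_2 was also the only diseased mouse with Eif2s3y above Xist. Among mice with Xist above Eif2s3y, Sesn1 ran from 10.32 to 11.21 in the 6 diseased mice. It ran from 11.42 to 12.06 in the 2 disease-free Bim-deleted mice, both given pristane, and from 10.59 to 12.29 in the 4 transgene-only mice. Diseased minus transgene only was -0.43 ± 0.23 (adjusted p = 0.324). Disease-free Bim-deleted minus transgene only was 0.49 ± 0.23 (adjusted p = 0.9999; 95% interval 0.0011 to 0.97). A second probe gave -0.84 ± 0.23 (adjusted p = 0.0658) against disease-free Bim-deleted mice and the remaining one -0.05 ± 0.13.
Sesn2 lay near background, with group means of 6.76 ± 0.09 (n = 7), 6.67 ± 0.05 (n = 7) and 6.72 ± 0.05 (n = 8), and diseased minus disease-free Bim-deleted was 0.10 ± 0.04 (adjusted p = 0.189).

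Trp53inp1, Phlda3 and Aen belong to the death arm: Trp53inp1 is a nuclear protein that promotes apoptosis and autophagy, Phlda3 competes with the survival kinase AKT at the membrane, and Aen is a nuclease. Trp53inp1 ran from 8.90 through 9.51 to 10.24 in diseased and 9.71 through 9.99 to 10.26 in disease-free Bim-deleted mice, with 4 of 7 diseased mice below the whole other group. The difference of -0.51 ± 0.24 did not pass (limma, adjusted p = 0.316). Transgene-only mice ran from 8.51 to 10.36 and spanned both. Trp53inp1 followed the 6 measured plasma cell markers (of 7) across the 22 arrays, at r = 0.82, and the T cell markers at r = 0.72. Plasma cell markers ran from 8.57 to 9.41 in diseased, 8.99983 to 9.97 in disease-free Bim-deleted and 8.11 to 9.42 in transgene-only mice. With the T cell marker level as a covariate the Trp53inp1 difference was -0.26 ± 0.18 (adjusted p = 0.535); the part of plasma cells was not tested. Phlda3 means were 7.52 ± 0.18, 7.42 ± 0.13 and 7.52 ± 0.19, and diseased minus disease-free Bim-deleted was 0.10 ± 0.09 (adjusted p = 0.659). Aen lay at background, from 6.47 to 6.63 over all mice, so no difference could be read from it.

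Zmat3 encodes a zinc finger protein that binds RNA and alters the stability and splicing of its targets. It ran from 7.13 through 7.27 to 7.64 in diseased, 6.91 through 7.15 to 7.37 in disease-free Bim-deleted and 6.89 through 7.34 to 7.38 in transgene-only mice. In each comparison 3 of the 7 diseased mice exceeded all of the other group. The differences were 0.20 ± 0.09 (limma, adjusted p = 0.308) and 0.10 ± 0.09 (adjusted p = 0.610).

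**Figure D2:**
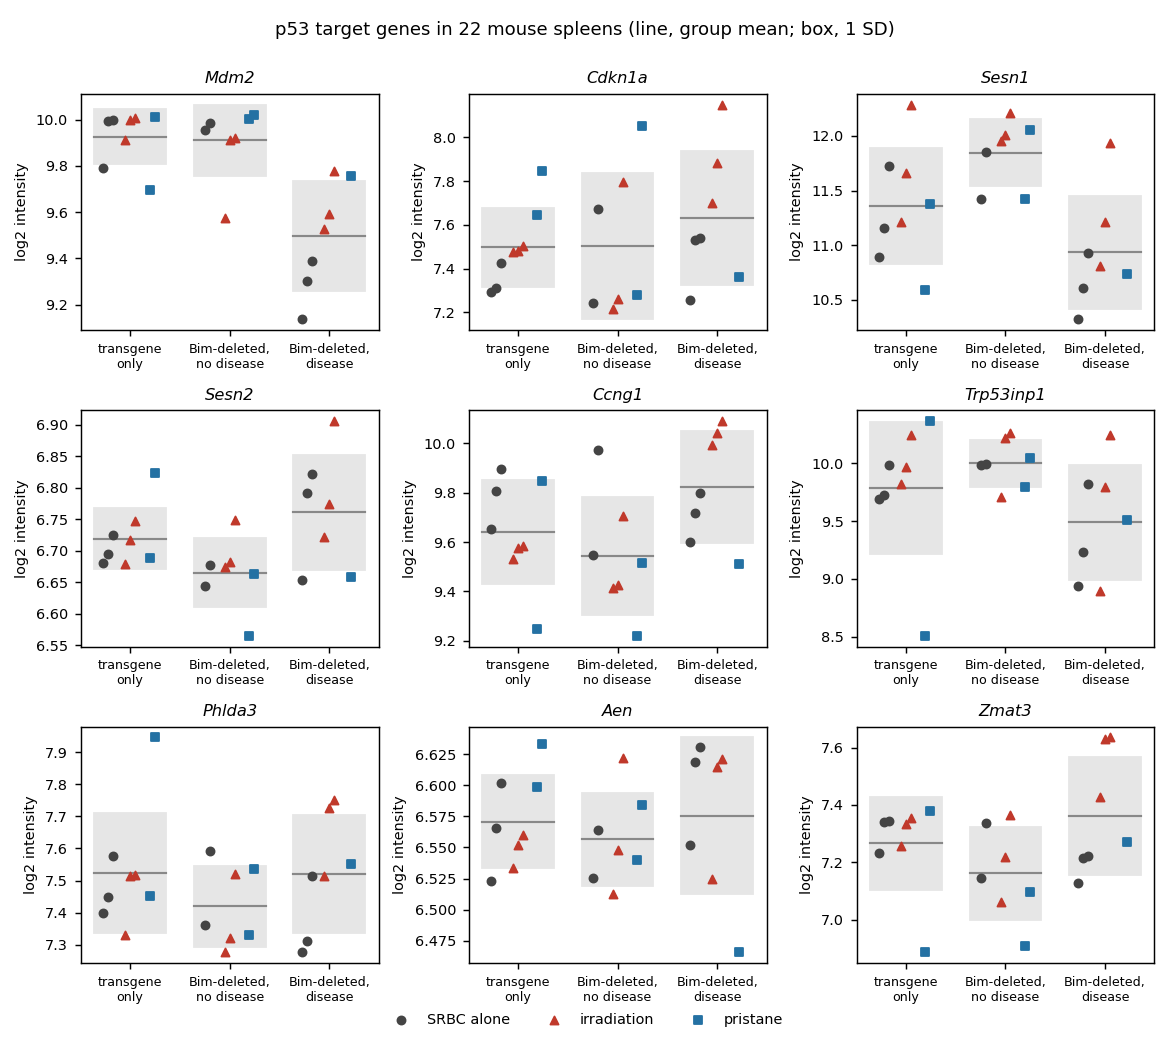
Log2 intensity (vertical axis, a separate scale for each gene) of 9 p53 pathway genes in each of 22 spleens, by genotype-disease group; points are mice, with shape and colour for the stimulus, lines are group means and boxes 1 SD either side. Mdm2 is low in the diseased mice, with SRBC-alone mice lowest at 9.14 to 9.39, and the 3 irradiated diseased mice top the Ccng1 and Zmat3 panels.

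Counted over the 9 genes, 1 passed the adjusted test between diseased and disease-free Bim-deleted mice, where 1.83% of all 20463 features did. At an unadjusted p under 0.05 the count was 6 of 9, with Sesn2, Ccng1 and Zmat3 higher and Mdm2, Sesn1 and Trp53inp1 lower, beside 14.7% of all features. The median difference of the 9 was 0.10, and over all features -0.0040. Between diseased and transgene-only mice 1 of 9 passed (5.22% of features) and 1 was under 0.05 unadjusted (20.2%). Between disease-free Bim-deleted and transgene-only mice 0 of 9 passed with limma (0% of features), and Sesn1 was the only one under 0.05 unadjusted (3.32%). These 3 comparisons share mice.

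**Figure D3:**
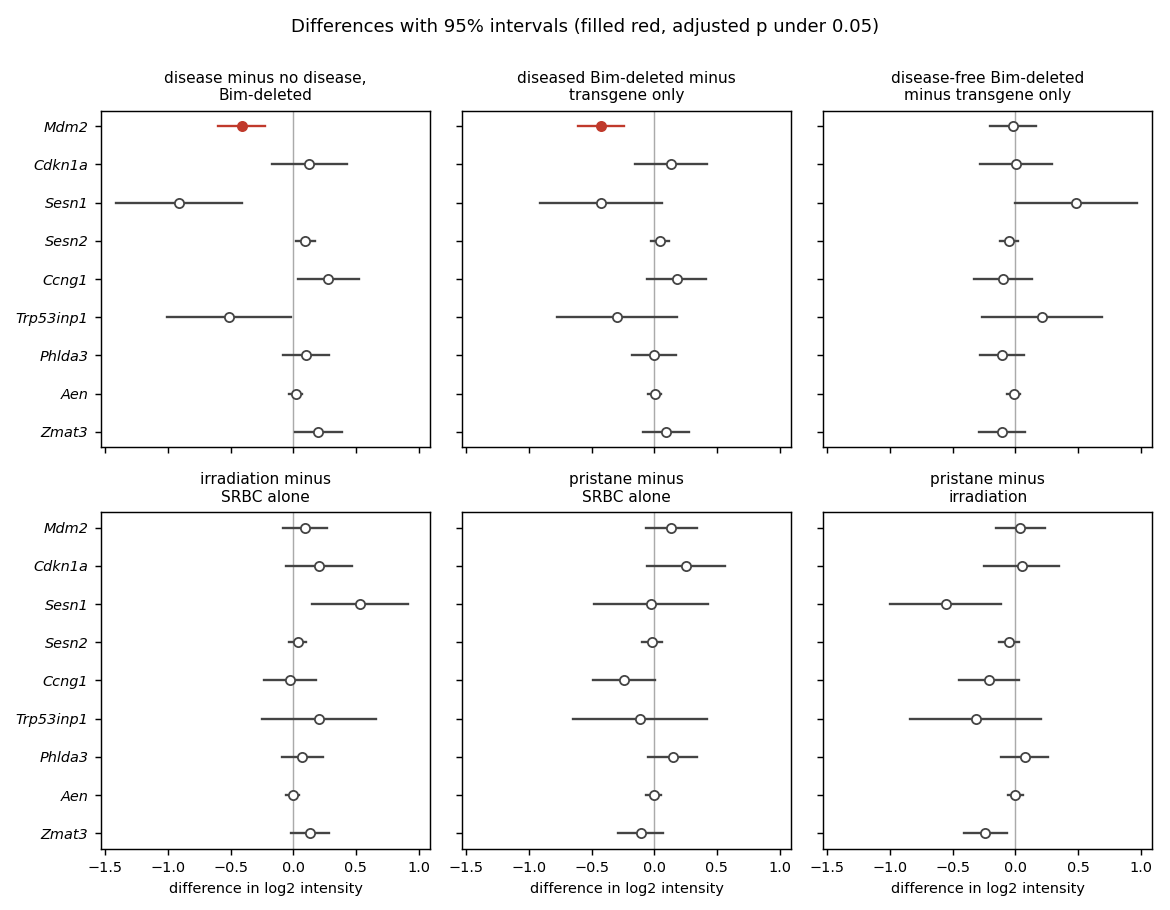
Differences in log2 intensity (horizontal axis) for 9 p53 pathway genes in 6 comparisons; points are differences, lines 95% intervals, and filled red marks an adjusted p under 0.05. Mdm2 passes in both comparisons that involve the diseased mice, at -0.41 and -0.43, and no gene passes in a comparison of stimuli.

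Irradiation was set against SRBC alone to see whether these genes differed between mice that had and had not been irradiated, with genotype-disease group as a term. None of the 9 passed the adjusted test with limma, and 0% of all features did. Sesn1 was the only one under 0.05 unadjusted, beside 4.68% of features. Sesn1 ran from 10.32 through 11.04 to 11.86 with SRBC alone and from 10.81 through 11.93 to 12.29 with irradiation, with 5 of 9 irradiated mice above every SRBC-alone mouse. The difference was 0.53 ± 0.18 (adjusted p = 0.945), and it was positive in each group: 0.70 in diseased, 0.42 in disease-free Bim-deleted and 0.46 in transgene-only mice. For Cdkn1a irradiation minus SRBC alone was 0.20 ± 0.13 (95% interval -0.06 to 0.47), for Mdm2 0.09 ± 0.08 (-0.08 to 0.26) and for Ccng1 -0.03 ± 0.10 (-0.24 to 0.18), all with adjusted p = 0.998.

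Among the diseased mice the picture over stimuli was different in value, though not past the adjusted test. The 3 irradiated diseased mice had Ccng1 at 10.09, 10.04 and 9.99, and the next of the other 19 mice stood at 9.97. Zmat3 was 7.64, 7.63 and 7.43 in them and at most 7.38 in the others. They were thus the highest 3 of 22 mice for both genes, a feature noticed in the values and not separately tested. A second Ccng1 probe also placed all 3 above the other 19 mice, from 8.39963 to 8.45 against at most 8.17. The third placed 2 of them there. Cdkn1a stood at 8.15, 7.70 and 7.88 in the same 3 mice and at 7.53, 7.54 and 7.25 in the 3 diseased mice on SRBC alone, which did not overlap. On the 2 other Cdkn1a probes they did overlap. There the irradiated diseased mice ran from 7.19 to 7.34 and from 6.73 to 6.97. The highest diseased mouse on SRBC alone stood at 7.22 and 6.78. Phlda3 was 7.75, 7.51 and 7.73 against 7.31, 7.51 and 7.28, where the lowest irradiated and the highest SRBC-alone value were nearly level.

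Irradiation minus SRBC alone within diseased mice was 0.37 ± 0.11 for Zmat3, 0.36 ± 0.10 for Mdm2, 0.30 ± 0.12 for Phlda3, 0.47 ± 0.19 for Cdkn1a and 0.34 ± 0.14 for Ccng1, each with adjusted p = 0.937 by limma. These 5 of 9 were under 0.05 unadjusted, all higher, beside 5.04% of all features, and 0 of 9 passed the adjusted test, beside 0.00489%. The median of the 9 differences was 0.34 and that of all features 0.0023. The other Cdkn1a probes gave 0.17 ± 0.10 and 0.13 ± 0.08, and the other Phlda3 probe -0.0073 ± 0.15. Within disease-free Bim-deleted mice 0 of 9 genes were under 0.05 unadjusted (3.12% of features) and 0 passed (0%), with a median of -0.03. Within transgene-only mice the counts were again 0 (4.38%) and 0 (0%), with a median of 0.01.

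The interaction of irradiation with group was itself tested, in a model of all 9 combinations. By the limma F test 0 of 9 genes passed after adjustment (adjusted p = 0.9999 for the lowest 3; 0% of features). Mdm2, Ccng1 and Zmat3 were under 0.05 unadjusted, as were 3.6% of features. Among irradiated mice alone, diseased minus disease-free Bim-deleted was 0.53 ± 0.14 for Ccng1 (adjusted p = 0.276), 0.35 ± 0.11 for Zmat3 (0.362), 0.49 ± 0.19 for Cdkn1a (0.482) and 0.29 ± 0.12 for Phlda3 (0.521). There 4 genes were higher and 1, Sesn1, lower at an unadjusted p under 0.05 (8.62% of features), and 0 of 9 passed (0.0586%). Every irradiated disease-free Bim-deleted mouse had Eif2s3y above Xist, but of the irradiated diseased mice only I_2 did. The irradiated diseased mice spanned 7.39 to 8.61 in T cell markers and 9.47 to 10.91 in erythroid markers, against 8.05 to 8.31 and 10.62 to 10.85 in the diseased mice on SRBC alone. Their 6 measured cycling markers (of 9) ran from 8.62 to 9.21 against 9.15 to 9.41, and their neutrophil markers from 9.38 to 11.199 against 9.93 to 11.63. The part of cell makeup in these within-group differences was not tested.

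**Figure D4:**
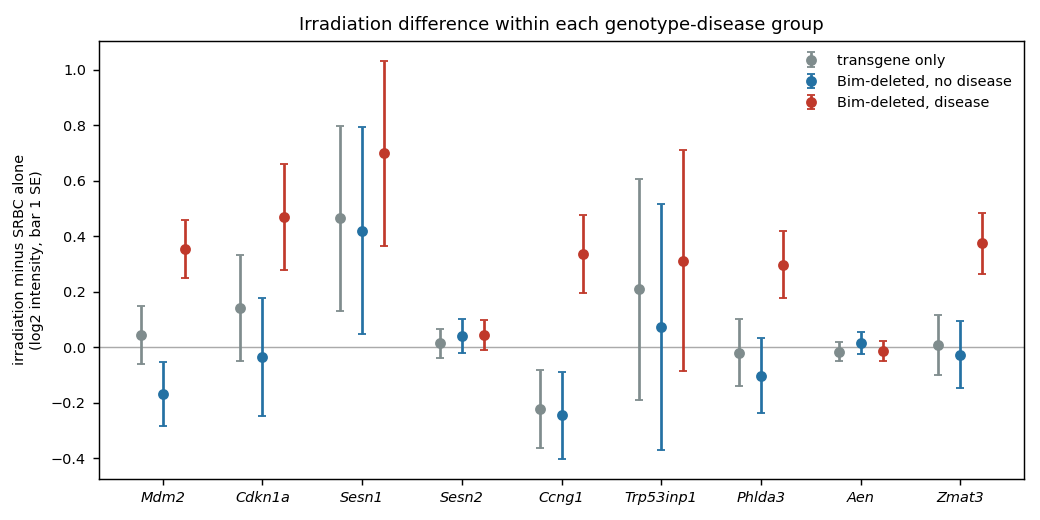
Irradiation minus SRBC alone (vertical axis, difference in log2 intensity; bars 1 SE) for 9 p53 pathway genes within each genotype-disease group. In diseased mice Mdm2, Cdkn1a, Ccng1, Phlda3 and Zmat3 lie between 0.30 and 0.47, and Sesn1 is positive in all 3 groups.

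Pristane was given to 5 mice. All 5 had Xist above Eif2s3y, as only part of the SRBC-alone and irradiated mice did. Pristane and sex thus cannot be fully told apart, here or in the wider pathway below. Against SRBC alone 0 of 9 genes passed (0.0147% of features) and 0 were under 0.05 unadjusted by limma (15.4%), with 1 probe per gene. The difference nearest to the threshold was Ccng1 at -0.24 ± 0.12 (adjusted p = 0.337), with 4 of 5 pristane mice below every SRBC-alone mouse. The 2 other Ccng1 probes gave -0.02 ± 0.12 and -0.0091 ± 0.10, so that difference rests on 1 probe. For Cdkn1a the difference was 0.25 ± 0.15 (limma, adjusted p = 0.422). With every probe a feature of its own, its 2 other probes gave 0.23 ± 0.07 (adjusted p = 0.170) and 0.13 ± 0.06 (adjusted p = 0.299). Both were under 0.05 unadjusted. Against irradiation 0 of 9 passed (0.279%), and Zmat3, at -0.24 ± 0.08 (adjusted p = 0.155), and Sesn1, at -0.55 ± 0.21 (adjusted p = 0.187), were under 0.05 unadjusted (17.3%). Zmat3 ran from 6.89 through 7.10 to 7.38 with pristane and from 7.06 through 7.35 to 7.64 with irradiation, with overlap. Without the transgene-only pristane mouse P_1 the Zmat3 difference was -0.30 (adjusted p = 0.03003). The 5 pristane mice spanned 7.76 to 9.23 in B cell markers, against 8.96 to 9.33 in irradiated mice, and all 6 measured B cell markers had lower means. With the B cell marker level as a covariate the differences were -0.16 ± 0.10 for Zmat3 (adjusted p = 0.743) and -0.42 ± 0.26 for Sesn1 (adjusted p = 0.734).

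The wider pathway was covered by 54 further regulators and targets, of which 46 were measured. Between diseased and disease-free Bim-deleted mice none passed with limma and 8 of 46 were under 0.05 unadjusted, beside 1.83% and 14.7% of all features; the smallest p belonged to the repair nuclease gene Ercc5 (-0.33 ± 0.09, adjusted p = 0.0522), to Ddit4, which restrains mTORC1 (-0.98 ± 0.27, adjusted p = 0.0712), and to Triap1, which counters apoptosis (0.17 ± 0.05, adjusted p = 0.0886). Between diseased and transgene-only mice 4 of 46 passed, beside 5.22% of all features. Triap1 rose by 0.18 ± 0.05 (adjusted p = 0.0355), Ercc5 fell by 0.30 ± 0.08 (0.0395) and Ddit4 fell by 0.95 ± 0.27 (0.0411), from 10.59 ± 0.40 to 9.64 ± 0.72. Trp63, the p53 relative, fell by 0.10 ± 0.03 (0.0368), though both its means, 6.46 and 6.56, were at background. With each of the 22 mice left out in turn, these calls were lost in 10 (Triap1), 9 (Ercc5), 12 (Ddit4) and 11 (Trp63) of the 22 fits, with adjusted p up to 0.0989.

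Of the repair targets (Ddb2, Xpc, Rrm2b, Polk, Polh and Ercc5) 4 of 6 were under 0.05 unadjusted between diseased and disease-free Bim-deleted mice, with Ddb2, Xpc and Ercc5 lower and Polh higher, where 14.7% of all features were. The 10 measured apoptosis targets, which include Fas, Bbc3 and Pmaip1, gave 1 such gene, and the 7 measured arrest targets, which include Gadd45a, gave 0. Between disease-free Bim-deleted and transgene-only mice none of the 46 passed or was under 0.05 unadjusted (3.32% of all features were); the smallest p belonged to Mdm4 (0.04 ± 0.02), Plk2 (-0.11 ± 0.06) and Trp63. Between irradiation and SRBC alone none passed, and Triap1 (-0.12 ± 0.04), Ddit4 (0.49 ± 0.19) and Pmaip1 (0.08 ± 0.03) were under 0.05 unadjusted, beside 4.68% of all features. With pristane, Apaf1, the scaffold of the apoptosome, rose by 0.50 ± 0.10 against irradiation (9.49 ± 0.35 against 8.98 ± 0.14), just inside the threshold (adjusted p = 0.04996). It was the 1 gene of 46 that passed there, beside 0.279% of all features, and its call was lost in 19 of the 22 fits that left out 1 mouse (adjusted p from 5.81e-04 to 0.177). Against SRBC alone none passed, and Apaf1 (0.44 ± 0.11), Ephx1 (-0.77 ± 0.22) and Tnfrsf10b (0.15 ± 0.05) had the smallest p of 12 under 0.05 unadjusted, beside 15.4% of all features.

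The 9 genes did not move as a block from mouse to mouse. Over the 22 arrays the closest pairs were Ccng1 with Zmat3 (Pearson r = 0.76), Sesn1 with Trp53inp1 (0.61), Cdkn1a with Phlda3 (0.60) and Mdm2 with Sesn1 (0.57). Cdkn1a and Mdm2 had r = -0.02. After the mean of each of the 9 combinations was taken out, Cdkn1a with Ccng1 stood at 0.72 and Ccng1 with Zmat3 at 0.58. The strongest inverse pair was Sesn1 with Sesn2, at -0.56 over the 22 arrays and -0.76 after that step, though Sesn2 lay near background. All these values share arrays, normalization and cell makeup, and are given as descriptions. By the same measure the named genes most like Mdm2 over the 22 arrays were Dhx38 (0.90), Macroh2a1 (0.88), Zzef1, Ltbp3 and Vav1 (0.86 each), and those most like Cdkn1a were Mcoln1 (0.81), Slc15a3, Scarb2 (0.80 each), Cd44 and Serpina11 (0.78 each).

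**Figure D5:**
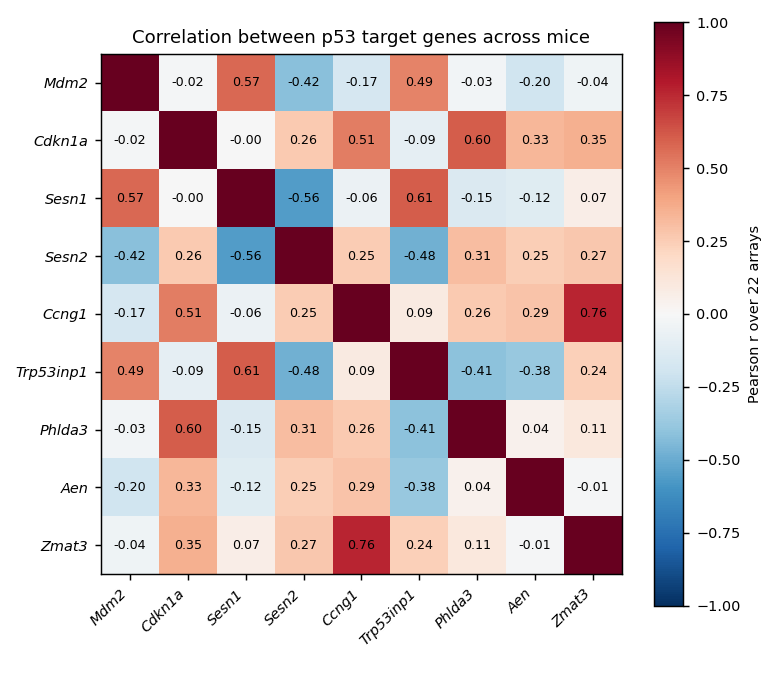
Pearson correlation between 9 p53 pathway genes over 22 arrays, as a colour scale from -1 to 1 with each value printed; both axes list the genes. Ccng1 and Zmat3 share the highest value, 0.76, and Cdkn1a and Mdm2 lie near 0.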

How the data were processed

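Spleen RNA of 22 mice was measured on 1-colour Illumina bead arrays, and the authors deposited log2 intensities for each array. Those values have the same distribution on every array, as after quantile normalization; the background correction is not given in the sources used here. A table of unnormalized intensities was not used, since its 44 per-sample columns match no mouse by name, so the deposited log2 values were tested as they stand.

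Of 45281 probes, 30013 lay above an array's 40th percentile on 7 or more arrays. The probe with the highest mean stood for its gene, which gave 20463 features. Differences came from limma 3.58.1 in R 4.3.3 with a mean per genotype-disease group, from an additive model with the stimulus, and from a model of all 9 combinations, with Benjamini-Hochberg adjustment over all features and a threshold of 0.05. The models were tested on simulated data. The genes and lists were chosen with earlier results of these data known. All 10 members were named; of the wider lists, genes past the threshold in a comparison (at most 8), otherwise the 3 with the smallest p; for Mdm2 and Cdkn1a, the 5 most similar genes. The irradiated diseased mice were singled out, and the unadjusted counts, within-group comparisons and repair genes given, after their values were seen. The labels do not say whether mice were littermates, so p-values measure the spread between these mice. The design text counts 7 transgene-only mice and the titles list 8, all used. Precision is limited by the number of arrays. Numbers in the titles did not pair the mice: deviations of same-numbered mice correlated at a mean r of -0.04 and others at 0.02.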

Additional observations from a re-analysis of the deposited data

Results flagged for a closer look

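In groups of 5 to 9 mice, single values far from the rest of their group were looked for. Of 54 combinations of gene and group tested, 7 were marked, and chance alone marks about 1 in 20. Mdm2 stood apart in the disease-free Bim-deleted irradiated mouse I_1, at 9.57 with its nearest neighbour at 9.91. On the second Mdm2 probe this mouse stood at 9.32, above disease-free Bim-deleted mouse P_1 at 9.23. The transgene-only pristane mouse P_2 stood apart from its group in Sesn2 (6.82, high), Trp53inp1 (8.51, low), Phlda3 (7.95, high) and Zmat3 (6.89, low). Its array also had the lowest median correlation with the other arrays (r = 0.953), with B cell markers at 7.76, T cell markers at 7.39 and neutrophil markers at 12.96; their part in these values was not tested. Among irradiated mice, the diseased mouse I_1 stood apart in Sesn2 (6.91, high) and Trp53inp1 (8.90, low).

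With the probe used for each gene, irradiation minus SRBC alone had opposite signs in some groups. For Mdm2 it was 0.36 in diseased and -0.17 in disease-free Bim-deleted mice, an interaction of 0.52 ± 0.16 (limma, unadjusted p = 0.00465, adjusted p = 0.973). On the second Mdm2 probe it was 0.31 in diseased, 0.06 in disease-free Bim-deleted and 0.16 in transgene-only mice, so the sign did not reverse. For Ccng1 it was 0.34 in diseased and -0.22 in transgene-only mice, an interaction of 0.56 ± 0.20 (unadjusted p = 0.0137, adjusted p = 0.899). The other Ccng1 probes gave 0.33 and 0.25 in diseased mice. In transgene-only mice they gave -0.0029 ± 0.15 and -0.075 ± 0.12, so the fall there rests on the probe used.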

How the results depend on the processing

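Mdm2 was lower in diseased than in disease-free Bim-deleted mice under all 41 alternatives (-0.69 to -0.17), and its call was lost in 9 of them. These were the 2 groups fitted alone (adjusted p = 0.0788), Xist as a covariate (0.0567), stimulus with Xist (0.306), SRBC alone (0.0616), irradiation (0.699), and leaving out diseased mouse A_1 (0.0595) or A_2 (0.0519) or disease-free Bim-deleted mouse A_1 (0.0543) or P_2 (0.0541). Against transgene-only mice its call was lost only within irradiation (0.181). The number of genes past the test between diseased and disease-free Bim-deleted mice, 1, became 2 with the 60th percentile filter, array weights, the B cell or erythroid marker level or the stimulus as a covariate, and the replicate block. It became 0 with the 2 groups alone, with Xist, and with stimulus and Xist. With single mice left out it ran from 0 to 2. Apart from the erythroid covariate, where it was Ccng1, the gene gained was Sesn1. Its adjusted p was 0.0388 with the 60th percentile filter, 0.0268 with array weights, 0.0274 with B cell markers, 0.0346 without transgene-only mouse I_3 and 0.0372 without P_2. Against transgene-only mice the erythroid covariate also gave 2, and for pristane minus irradiation it gave 1, with 0 to 1 when single mice were left out. The replicate block, the number in the titles, gave Mdm2 -0.41 (adjusted p = 0.0328) and Sesn1 -0.973 (0.0371) between diseased and disease-free Bim-deleted mice; 7 of 21 mice correlated best with their own number. Features past the test ran from 45 to 1000 in that comparison, 546 to 2690 for diseased minus transgene only, 0 to 1417 for pristane minus SRBC alone and 0 to 1811 for pristane minus irradiation. Covariates for cycling, B cell and neutrophil markers and for stimulus with Xist, and leaving out mice for the wider genes, were added after seeing the data. Aen, the other Sesn2 probes and the third Mdm2 probe lay too near background for a difference to be read.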
